A study of Mus musculus with 3 samples.

Results

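The transcripts described here are 37 genes of G2 phase and mitosis, matched by symbol from a list of well-known cell division genes, among the 31053 genes of the count matrix. All 37 symbols were found. They comprise cyclins and their kinase, the anaphase-promoting complex, the chromosomal passenger complex, spindle and kinetochore proteins, kinesins, checkpoint kinases, cytokinesis factors and chromosome structure proteins. The cells were bone marrow cells sorted as lineage-negative, Sca1-positive and Kit-positive (LSK), the compartment of hematopoietic stem cells and multipotent progenitors. They came from 2 mice labelled Helios-deficient (KO) and 2 wild-type (WT) mice. Helios is the Ikaros-type zinc finger protein encoded by Ikzf2. The labels give no strain, age, sex or deleted exon, and they do not say in which cells the gene was lost. Each mouse carried a hashtag antibody against CD45 and MHC class I, the cells carried tagged antibodies against CD41, CD48, CD150 and CD135 (Flt3), and all 4 mice shared 1 droplet run with a 3 prime chemistry.

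The authors kept 3470 of 4108 barcodes: 557 and 824 cells of Helios-deficient mice 1 and 2, and 1175 and 914 cells of wild-type mice 1 and 2, the order used for all values below. Total counts per mouse ran from 5729987 to 10317599 unique molecular identifiers (UMIs, one per captured RNA molecule). Ikzf2 itself stood at 73.7, 82.7, 70.6 and 67.7 UMIs per 1000000 UMIs of the mouse (CPM), so it was not lower in the mice labelled Helios-deficient. A 3 prime count can include transcripts that lack an internal exon, so this level checks neither the deletion nor the labels, and the genotypes are used as labelled. Kit (82.6 to 94.8 CPM) and Ly6a, which encodes Sca1 (128 to 157 CPM), were found in all 4 mice. Markers of other cells were found as well: 4 B cell genes summed to 40.1 to 53.8 CPM, 4 macrophage genes to 7.95 to 25.6 CPM, 4 neutrophil genes to 2.51 to 15.9 CPM, 4 erythroblast genes to 9.60 to 44.7 CPM and 3 T cell genes to at most 0.359 CPM. In wild-type mouse 2 the macrophage and erythroblast sums were the highest of the 4 mice, and the part of erythroblast transcripts in the results was not tested.

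Cells that approach division switch on a common set of genes late in the cycle. Cyclin A2 and the B-type cyclins activate the kinase Cdk1 and drive entry into mitosis, Aurora kinases and kinesins build the spindle, and the anaphase-promoting complex then marks the cyclins for destruction. Many of these genes are held off in resting cells by the DREAM complex and activated in G2 by the MuvB core with B-Myb and FoxM1, through a cell cycle homology region (CHR) in the promoter, and by NF-Y, which binds CCAAT boxes. Long-term stem cells in the marrow divide rarely and multipotent progenitors divide often, and megakaryocytes become polyploid by rounds of mitosis without completed cytokinesis.

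The promoters of 31 members were found by symbol in a RefSeq promoter table of GRCm38.p6, with 250 bases before and 50 after each start. Pbk, Dlgap5, Aurkb, Ccna2, Smc4 and Tpx2 were not matched. Both strands were searched for 2 CHR-type motifs, TTTGAA (which reads TTCAAA on the other strand) and TTCGAA (which reads the same on both). The CCAAT box was searched as well, and it reads ATTGG on the other strand. A CHR-type match lay in a window of 23 of the 31 members (74.2%), against 21.7% of the 27025 genes and 19.2% of the 32851 windows in the table. CCAAT lay in 24 of 31 (77.4%), against 41.1% of genes and 37.4% of windows, and 19 members (61.3%) held at least 2 copies, against 13.3% of genes. Both kinds lay in 20 of 31 members (64.5%), against 8.61% of genes and 7.52% of windows. Within 50 bases on either side of the start, a CHR-type match was found in 20 of 31 members (64.5%), against 6.12% of genes. These matches describe letters, not bound sites.

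The 160 bases before the start are shown for 4 of the most abundant members, Cdk1, Ube2c, Birc5 and Top2a, and for Kif23 and Ect2, which were lower in cells with platelet transcripts, where most members were higher. They lie at chr10:69352913-69353072 (- strand), chr2:164769769-164769928 (+ strand), chr11:117849077-117849236 (+ strand), chr11:99024190-99024349 (- strand), chr9:61946800-61946959 (- strand) and chr3:27153879-27154038 (- strand) of GRCm38.p6. Each is written 5′ to 3′ along the gene, and capitals mark the CHR-type and CCAAT letters on either strand.

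Cdk1: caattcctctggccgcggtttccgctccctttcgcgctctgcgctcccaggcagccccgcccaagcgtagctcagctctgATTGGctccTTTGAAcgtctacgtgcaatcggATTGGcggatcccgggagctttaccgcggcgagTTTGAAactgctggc
Ube2c: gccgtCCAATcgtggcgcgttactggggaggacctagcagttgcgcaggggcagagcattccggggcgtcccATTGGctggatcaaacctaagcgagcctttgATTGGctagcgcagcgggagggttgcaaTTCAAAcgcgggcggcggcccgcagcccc
Birc5: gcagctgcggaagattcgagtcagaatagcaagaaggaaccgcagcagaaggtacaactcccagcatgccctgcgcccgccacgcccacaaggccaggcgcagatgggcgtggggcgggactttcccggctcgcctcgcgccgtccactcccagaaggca
Top2a: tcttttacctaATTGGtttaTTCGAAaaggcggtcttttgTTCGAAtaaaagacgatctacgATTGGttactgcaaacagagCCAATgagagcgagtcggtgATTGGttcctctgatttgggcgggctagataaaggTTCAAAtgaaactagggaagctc
Kif23: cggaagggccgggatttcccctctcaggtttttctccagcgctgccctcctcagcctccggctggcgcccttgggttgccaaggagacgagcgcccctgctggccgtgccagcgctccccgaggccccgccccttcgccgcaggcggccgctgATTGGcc
Ect2: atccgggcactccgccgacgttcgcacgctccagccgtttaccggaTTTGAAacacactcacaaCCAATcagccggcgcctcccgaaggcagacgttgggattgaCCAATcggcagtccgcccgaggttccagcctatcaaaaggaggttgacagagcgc

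Top2a held 3 CHR-type and 4 CCAAT matches in this stretch, Cdk1 2 of each, and Ube2c 1 and 3. Birc5 held neither. Ect2 held 1 CHR-type and 2 CCAAT matches, and Kif23 held 1 CCAAT match, with a TTTGAA at position 3 after the start that is not shown.

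Summed over all cells of a mouse, the members together made up 2149, 2347, 1785 and 1979 CPM. The most abundant was Cks2 (ENSMUSG00000062248), which encodes a small subunit of the Cdk1 kinase, at a mean of 259 CPM over the 4 mice. It was followed by Smc4, a condensin subunit, at 184 CPM, Top2a (ENSMUSG00000020914), the topoisomerase that untangles sister DNA, at 178 CPM, and Birc5 (ENSMUSG00000017716), the passenger protein survivin, at 114 CPM. The kinase gene Cdk1 (ENSMUSG00000019942) stood at 104 CPM and Ube2c (ENSMUSG00000001403), the E2 enzyme of the anaphase-promoting complex, at 102 CPM. The lowest were Gtse1, a microtubule-associated protein, at 3.44 CPM, and Anln, the cytokinesis scaffold anillin, at 7.50 CPM. A 3 prime library counts 1 end per transcript, so these are levels per molecule and not per length, and capture can differ between genes.

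**Figure D1:**
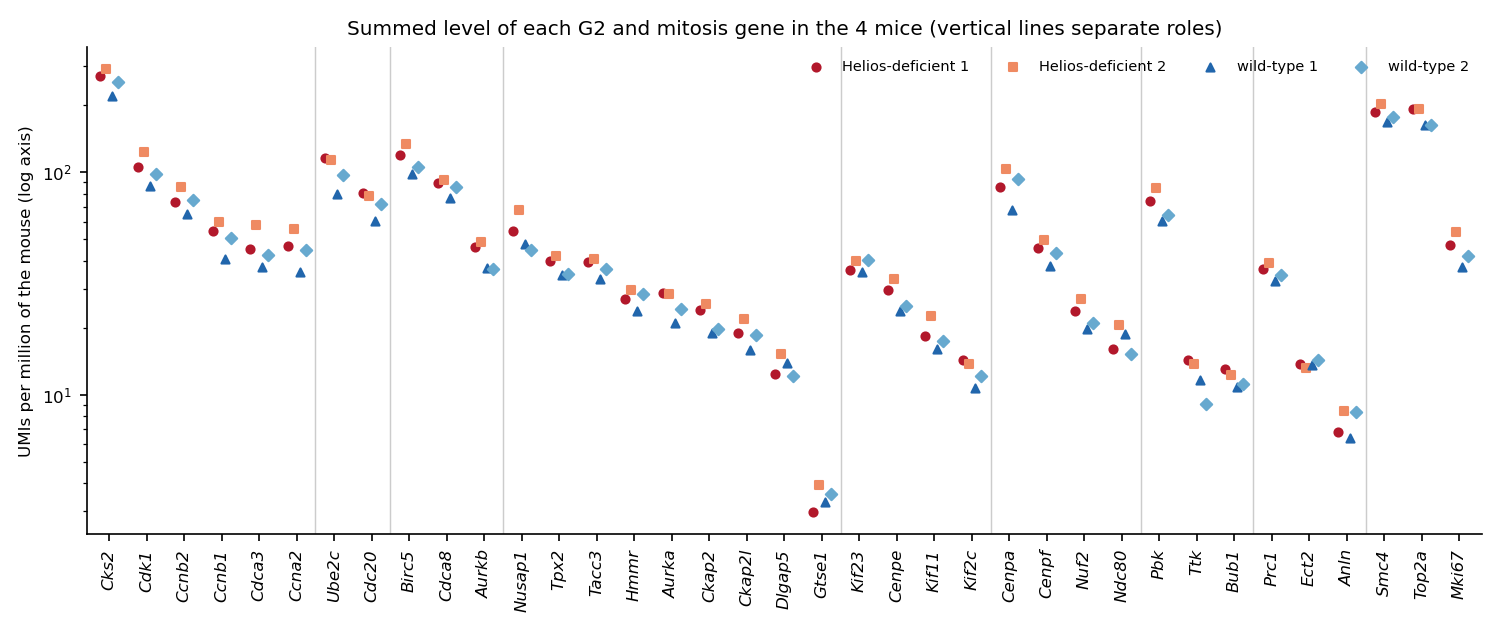
Level of each of the 37 members in each mouse, in CPM (log axis), with 1 point per mouse and vertical lines between roles. Levels run from Gtse1 at a mean of 3.44 to Cks2 at 259. In 28 of the 37 members both Helios-deficient mice lie above both wild-type mice, as in 19.9% of the 11592 genes tested.

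Few cells held most of these transcripts. To compare cells at 1 depth, each was thinned to 3000 UMIs (3453 of 3470 cells; 17 were shallower). Member UMIs were 0 in 925 cells (26.8%), the median was 1 and the maximum 70. Cells in the top 10% by summed member UMIs, which began at 12 UMIs, are called G2M-high here: 363 cells (10.5%, ties included), which held 62.4% of all member UMIs. The limit is a point on a continuous range, and 114 cells lay within 2 UMIs of it, from 10 to 14. The G2M-high cells had a median of 15208 UMIs before thinning, against 7546.5 in the other cells. No doublet caller was run within a mouse, and doublets between mice, which had a median of 12133 UMIs, were not among the kept cells.

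The members differed in how closely they kept to these cells. Since the cells were defined by the summed members, the following shares are a description. Among the members with the sharpest contrast, Ube2c had a UMI in 57.3% of G2M-high cells and in 2.07% of the others, and Nusap1, a spindle microtubule bundling protein, in 53.2% and 1.52%. Birc5 was seen in 75.5% and 5.57%. Smc4 was the least selective of the abundant members, with a UMI in 73.3% of G2M-high cells and 26.3% of the others, and Cks2 stood at 89.8% and 27.7%. Top2a was seen in 78.2% and 13.4%, Cdk1 in 63.1% and 9.71%, and Kif23, a kinesin of the central spindle, in 30.9% and 6.18%. Across the 3453 thinned cells the correlation (Pearson) of a member with the sum of the others ran from 0.10 for Gtse1 to 0.63 for Birc5, with a median of 0.41. These cells share 1 run and 1 depth, and a low member such as Gtse1 is limited by sparse counts.

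The antibody tags are counted apart from the RNA, so gates set by them did not use the members. Cells in the highest tercile for CD48 and the lowest for CD150, the surface pattern of multipotent progenitors, were compared with cells in the lowest tercile for CD48 and the highest for CD150, the pattern of long-term stem cells. They numbered 750 and 767, and the other corners held 67 and 73 cells, too few to fit. Of 36 members tested, 35 were higher in the CD48-high CD150-low cells (edgeR quasi-likelihood test, adjusted p under 0.05), where 16.5% of all 9310 genes tested were higher. The median log2 fold change of the members was 0.93, against -0.01 over all genes. With gates set on log tag counts that were not centred within each cell, 25 of 35 members tested were called in either direction. Of all genes 23.2% were. With quartiles in place of terciles, 34 of 36 members were called, where 29.9% of all genes were. In such summed counts, more cells that hold a transcript and more transcript per cell cannot be told apart.

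Aurkb (ENSMUSG00000020897), the Aurora kinase of the passenger complex, had the widest difference. It stood at 75.4, 71.5, 62.2 and 53.9 CPM in the CD48-high CD150-low cells of the 4 mice and at 27.1, 22.5, 23.3 and 18.0 CPM in the CD48-low CD150-high cells. The ranges did not overlap, and the log2 fold change was 1.59 (SE 0.13). The checkpoint kinase gene Bub1 followed with 17.9 ± 3.66 against 6.95 ± 1.80 CPM (SD, n = 4 mice), a log2 fold change of 1.45. The mitotic kinesin gene Kif11 reached 1.41 and the cytokinesis gene Ect2, which encodes an activator of RhoA at the cleavage furrow, 1.37. Top2a stood at 265 ± 37.6 against 118 ± 9.49 CPM, a log2 fold change of 1.20. The smallest calls were Cenpa, the centromeric histone, at 0.40, and Cdc20, an activator of the anaphase-promoting complex, at 0.49. Tpx2, which activates Aurora A on the spindle, was at 52.3 ± 9.93 against 27.9 ± 12.3 CPM and did not pass (log2 fold change 0.88, edgeR adjusted p = 0.127). Gtse1 was too low to be tested, at 5.15 ± 1.51 against 2.76 ± 1.85 CPM. The 9 members listed as accumulating earlier, such as Top2a, Ccna2 and Ndc80, had a median of 0.999, and the 9 listed as accumulating later, such as Cdc20, Ccnb1 and Cenpe, had a median of 0.71. The difference between these medians was not tested.

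The share of G2M-high cells moved with the same tags. It was 24.5, 21.6, 22.5 and 15.4% in the CD48-high CD150-low cells of the 4 mice and 8, 6.98, 5.66 and 7.41% in the CD48-low CD150-high cells. Every mouse was higher in the first gate, and the ranges did not overlap. Median depth differed too, at 11922 and 6653 UMIs per cell before thinning, and its part in the difference was not tested. Taken singly over the 4 mice, the terciles of the CD48 tag held 6.34, 6.69 and 18.5% G2M-high cells from lowest to highest, so the step lay at the highest tercile. For CD150 the shares were 15.8, 8.69 and 7.04%, for CD135 17.7, 8.17 and 5.65% and for CD41 15.4, 7.82 and 8.34%. The tags were centred within each cell, so a cell rich in 1 tag is set lower in the others. Before centring, the median CD48 tag count per mouse was 77 to 104 in cells with 0 member UMIs and 156.5 to 214.5 in G2M-high cells, with no overlap. The raw medians of CD135 overlapped (36 to 39 against 38 to 40). Those of CD150 (75 to 78 against 79.5 to 83) and CD41 (32 to 33 against 34 to 37) were slightly higher in G2M-high cells, without overlap. The centred terciles of CD150 and CD41 ran the other way, with the highest share in the lowest tercile.

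**Figure D2:**
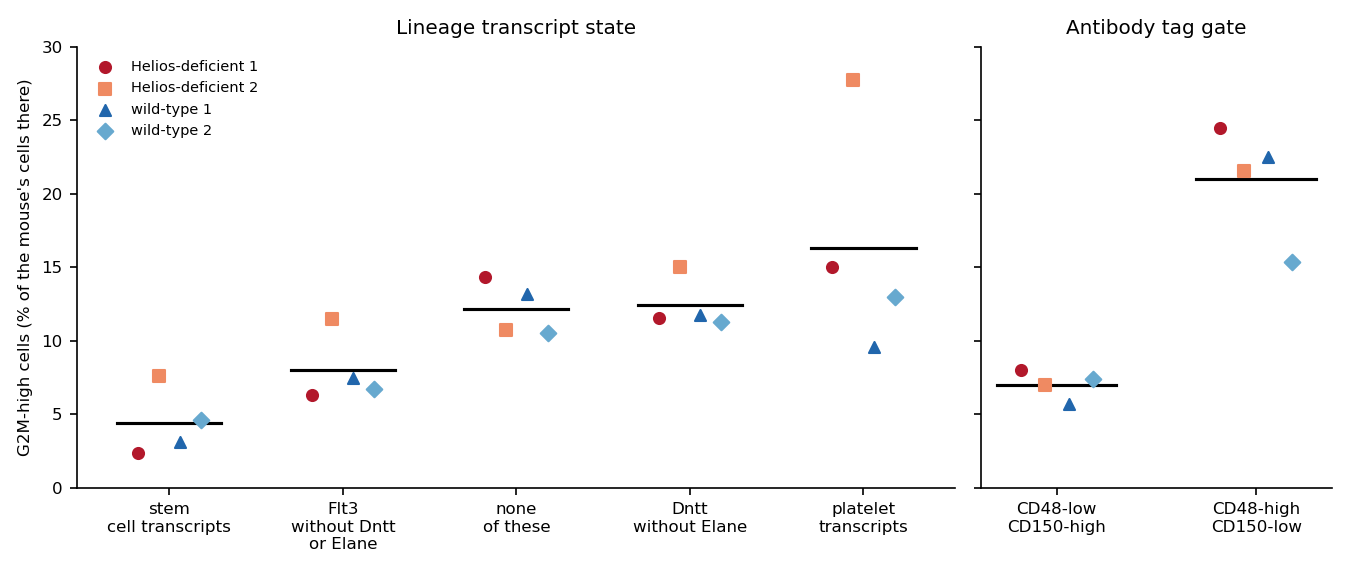
Share of G2M-high cells among the cells of each mouse in 5 lineage transcript states (left) and 2 antibody tag gates (right), with 1 point per mouse and a bar at the mean of the 4 mice. Shares run from a mean of 4.42% in cells with stem cell transcripts to 21.0% in the CD48-high CD150-low gate, and the platelet state spreads from 9.59 to 27.8%.

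Lineage states were then set from transcripts that are not members, each cell going to the first rule it met at the thinned depth. The rules in order were at least 2 UMIs of erythroid genes (Klf1, Car1, Ermap), of platelet genes (Pf4, Gp9, Gp1bb, Itga2b), of the neutrophil protease gene Elane, of the lymphoid gene Dntt, at least 1 UMI of Flt3, and at least 2 UMIs of stem cell genes (Procr, Hlf, Mecom, Mllt3). Cells that met no rule were the largest group (1441 of 3453). In 5 states every mouse had at least 30 cells, and each was compared with the mean of the other 4, with mouse as a block, over 8745 genes, 36 of them members. The 5 contrasts share their reference cells and are not independent. Median depth before thinning was 6307 UMIs in cells with stem cell transcripts, 7374 with Flt3, 8436 with Dntt, 8704 in cells that met no rule and 9430 with platelet transcripts, and its part in the results was not tested.

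Most members were lower in cells with stem cell transcripts. Of 36 members 30 were lower and 0 higher (edgeR adjusted p under 0.05), where 12.3% of all genes were lower, and the median log2 fold change was -0.89 against 0.02 over all genes. All 3 passenger complex genes, all 8 spindle assembly genes tested and all 4 kinetochore genes passed. Dlgap5, a spindle assembly factor, had the largest change at -1.39 and Ube2c followed at -1.36. Aurkb stood at 22.9, 23.4, 14.3 and 18.7 CPM there, or -1.24 on the log2 scale (SE 0.15; edgeR adjusted p = 1.26e-10). Top2a stood at 86.8, 117, 72.9 and 104 CPM (-1.03). The 6 members that did not pass were Ccnb1 (-0.82), Ect2 (-0.65), the proliferation antigen gene Mki67 (-0.64), the kinesin gene Kif2c (-0.55), Anln (-0.47) and Kif23 (-0.33). The share of G2M-high cells was 2.38, 7.59, 3.13 and 4.58%, with Helios-deficient mouse 2 the highest. With states set at 1 UMI, 10 members were lower, where 5.73% of all genes were lower.

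Cells with platelet transcripts went the other way for most members. Of 36 members 25 were higher, where 12.3% of all genes were higher, and 2 were lower, where 12% were lower, with a median log2 fold change of 0.71 against 0.004 over all genes. Ccna2, which encodes cyclin A2, stood at 64.3, 102, 45.2 and 63.1 CPM (0.91), Hmmr, a spindle pole protein, at 37.7, 56.03, 51.1 and 39.9 CPM (near 1, SE 0.17), and Ckap2l, another spindle protein, had the largest change (1.25). All 8 spindle assembly genes tested passed as higher, and so did all 3 passenger complex genes. Helios-deficient mouse 2 was the highest of the 4 mice for Ccna2 and Hmmr. The share of G2M-high cells was 15, 27.8, 9.59 and 13.0%, with the same mouse the highest. Over all cells of the same mice it was 11.5, 12.8, 9.58 and 9.02%, so wild-type mouse 1 showed no difference. With states set at 1 UMI, 1 member was called higher in place of 25, where 5.06% of all genes were higher.

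The 2 lower members both act in cytokinesis. Ect2 (ENSMUSG00000027699) stood at 6.65, 6.86, 8.76 and 6.43 CPM in the platelet state, at 6.55, 13.5, 4.51 and 8.86 CPM in cells with stem cell transcripts and at 11.9, 22.3, 19.9 and 23.0 CPM in cells with Dntt. The platelet and stem ranges overlapped, so the low level was not particular to the platelet state, and the Dntt values lay above the platelet ones in every mouse. Its log2 fold change against the other states was -0.92 (SE 0.31, edgeR adjusted p = 0.0202). It rested on 3, 6, 6 and 5 UMIs, and the call was lost without Helios-deficient mouse 2 (adjusted p = 0.120), without wild-type mouse 2 (0.117) or without the 5% of cells with the most UMIs (0.0548), with the log2 fold change between -0.82 and -0.90 in these 3 fits. Kif23 (ENSMUSG00000032254), a motor that recruits the Ect2 protein to the midzone, stood at 24.4, 43.5, 26.3 and 25.7 CPM there, at 16.4, 33.3, 38.3 and 34.4 CPM in cells with stem cell transcripts, which overlapped with these, and at 54.5, 57.1, 48.9 and 76.8 CPM in cells with Dntt. Its log2 fold change was -0.43 (SE 0.17, edgeR adjusted p = 0.0496). The call was lost when Helios-deficient mouse 1 or either wild-type mouse was left out, with a log2 fold change of -0.27 in the last, and without the mouse block. Without Helios-deficient mouse 2 it was -0.70. Prc1, which bundles the microtubules of the central spindle, was higher in the same cells, at 44.4, 82.3, 68.6 and 38.6 CPM (0.93), and Anln was not called (0.52).

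**Figure D3:**
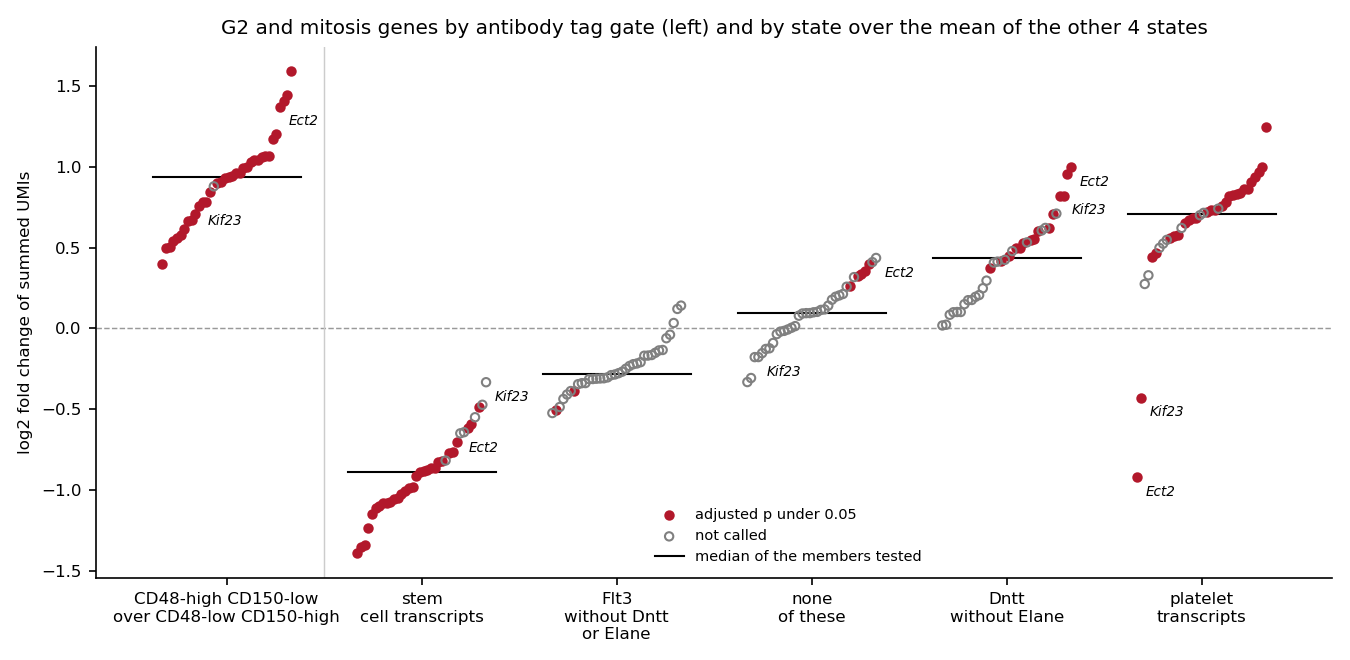
Log2 fold change of each member tested, for the antibody tag gates (left) and for each state over the mean of the other 4 states, sorted within a column. Filled points passed an edgeR adjusted p of 0.05 and the bar is the median. Ect2 and Kif23 lie below 0 in the platelet state (-0.92 and -0.43), where 34 of 36 members lie above it.

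In cells with Dntt, a marker of lymphoid priming, 15 of 36 members were higher, where 11.7% of all genes were higher, and the median log2 fold change was 0.44. Ect2 had the largest change (0.995), followed by the kinetochore gene Cenpf, at 69.8, 99.8, 50.8 and 73.8 CPM (0.96), and by Kif23 (0.82) and Ube2c (0.82). The Ube2c call was lost in 6 of the alternatives run. The count of 15 was 6 without wild-type mouse 2, 3 with states set at 1 UMI and 28 with states set at 3 UMIs, where 9.64, 9.42 and 11.9% of all genes were higher. The 9 later members had a median of 0.53 and the 9 earlier ones 0.21. The share of G2M-high cells was 11.5, 15.1, 11.7 and 11.3%, against 11.5, 12.8, 9.58 and 9.02% over all cells of the same mice, so Helios-deficient mouse 1 showed no difference. The mean ratio of the 2 shares was 1.16, but 0.99 when thinned to 5000 UMIs and 0.96 with all single-mouse barcodes.

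In cells with Flt3 but neither Dntt nor Elane, 33 of 36 members had a negative log2 fold change and few passed. Aurka, which encodes Aurora A, was lower (-0.50) at 21.1, 18.7, 16.1 and 20.03 CPM, and Ccna2 was lower (-0.39). These 2 of 36 stood where 1.57% of all genes were lower, and the median was -0.28 against 0.004 over all genes. At an unadjusted p under 0.05 there were 10 members, against 16.2% of all genes. Neither call held without the mouse block. In cells that met no rule, 5 of 36 members were higher, where 5.34% of all genes were higher, with a median of 0.10: Aurkb (0.40), Pbk (0.36), Tacc3 (0.34), Cdca3 (0.32) and Top2a (0.26). Leaving out wild-type mouse 1 gave 0 calls (2.69% of all genes higher), and leaving out Helios-deficient mouse 2 gave 13 (4.59%). Of 22 S phase genes 19 were higher in these cells. They held 48.2% of all G2M-high cells, at shares of 14.3, 10.7, 13.2 and 10.5%. The small groups could not be fitted: 8 of 43 cells with erythroid transcripts (18.6%) and 5 of 19 with Elane (26.3%) were G2M-high, and 0 cells met both the Dntt and the Elane rule.

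Granule transcripts (Mpo, Prtn3, Elane and Ctsg, summed at the thinned depth) divided the cells without an order. G2M-high cells made up 17.3% of cells with 0 such UMIs and 8.01, 8.41 and 6.72% of cells with 1, 2 and 3 to 4. The share was 11.4% with 5 to 8 and 17.7% with 9 or more. Both ends of the range were thus above its middle, with means over the mice of 18.7% ± 5.56 at 0 UMIs, 6.59% ± 2.12 at 3 to 4 and 17.8% ± 1.32 at 9 or more (SD, n = 4). At 0 UMIs the 4 mice stood at 23.8, 23.1, 12.8 and 15.2%, with the Helios-deficient mice higher. At 9 or more they stood at 16.2, 17.4, 18.2 and 19.35%, with the Helios-deficient mice lower. These differences between genotypes were not tested. Median depth before thinning was 8321 UMIs at 0, 7585 at 3 to 4 and 11967 at 9 or more. Its part in these shares was not tested.

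Between the genotypes, over all kept cells, no member passed. In edgeR 92 of 11592 genes were called (0.794%) and 0 of 37 members. DESeq2 also called 0. At an unadjusted p under 0.05 there were 22 members in edgeR, against 10.4% of all genes, and 12 in DESeq2, against 2.21%. In 36 members the log2 fold change, Helios-deficient over wild-type, was above 0, as in 49.9% of all genes tested. Its median was 0.26 against -0.0003 over all genes, with a range from -0.06 (Ect2) to 0.42 (Ttk, a checkpoint kinase gene). In 28 of 37 members both Helios-deficient mice were above both wild-type mice, as in 19.9% of all genes, and in 0 they were both below. The members share their cells, so they are not independent observations.

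The member with the smallest adjusted p was Pbk (ENSMUSG00000022033), a mitotic kinase gene, at 74.5, 84.6, 60.5 and 64.0 CPM, with a difference of 0.36 on the log2 scale (SE 0.09; edgeR adjusted p = 0.0546). Nusap1 (ENSMUSG00000027306) stood at 54.5, 67.9, 47.5 and 45.0 CPM, with 0.42 and an adjusted p of 0.0640 in the same test. Birc5 stood at 119.5, 134, 97.9 and 106 CPM (0.32, 0.0647), and Ube2c at 115, 114, 79.8 and 97.6 CPM (0.37, 0.0659). For each of these 4 the genotypes did not overlap. Aurkb stood at 46.1, 48.7, 37.02 and 36.6 CPM (0.37, 0.0789) and Top2a at 192.5, 192.9, 163.3 and 163.3 CPM (0.24, 0.0799), with nearly equal values within each genotype for Top2a. Cks2 stood at 270.3, 291, 220.3 and 254 CPM (0.24, 0.156) and Cdk1 at 105, 124, 87.1 and 98.0 CPM (0.31, 0.127). The 9 members in which the genotypes overlapped were Ccnb2, Hmmr, Cenpa, Kif23, Ndc80, Anln, Ect2, Dlgap5 and Gtse1. Among the cytokinesis genes, Prc1 was at 0.19, Anln at 0.08 and Ect2 at -0.06.

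By role, the median log2 fold change was 0.32 for the cyclins and their kinase, the anaphase-promoting complex and the passenger complex alike, 0.36 for the checkpoint and mitotic kinases, 0.30 for the kinesins, 0.25 for the kinetochore genes, 0.24 for spindle assembly and for chromosome structure, and 0.08 for cytokinesis, where 0 of 3 genes had an unadjusted p under 0.05. Among the cyclin genes, Ccnb1 stood at 54.6, 59.8, 40.9 and 50.6 CPM (0.34) and Ccna2 at 46.4, 55.6, 35.7 and 45.0 CPM (0.36), and the mitotic entry gene Cdca3 was at 0.39. Among the kinesins, Cenpe, which holds chromosomes to microtubule ends, stood at 29.7, 33.2, 23.8 and 25.0 CPM (0.38), Kif11, which pushes the spindle poles apart, was at 0.31 and Kif2c, a microtubule depolymerase, at 0.29. Kif23 stood at 36.3, 40, 35.8 and 40.5 CPM (0.01), so the genotypes overlapped. At the kinetochore, the Ndc80 complex genes Nuf2 and Ndc80 were at 0.33 and 0.12, and Cenpf was at 0.25. Cdca8 of the passenger complex was at 0.16 and Mki67 at 0.36. The spindle genes Ckap2, Ckap2l, Tacc3, Hmmr, Dlgap5 and Gtse1 were at 0.37, 0.27, 0.21, 0.13, 0.10 and 0.03. The Aurora A pair Aurka and Tpx2 was at 0.33 and 0.24. None of these passed the edgeR test.

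How many members passed depended on the mice. With each mouse left out in the order used here, it was 15, 3, 0 and 5, where 2.57, 4.76, 1.06 and 1.16% of all genes were called, against 0.794% with all mice. It was 7 when each mouse gave equal numbers of cells of each state (median log2 fold change 0.40; 0.563% of all genes), 12 without a filter on low counts (1.79%), and 0 without the 5% of cells with the most UMIs (median 0.16; 1.09%) or without the G2M-high cells, where 30 of 36 members tested were positive (0.826%). Without cells that held 2 or more UMIs of the B cell or macrophage markers it was 3 (0.987%). The G2M-high cells were chosen by the UMIs of these same members, so the fit without them cannot show whether the other cells differed.

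The share of G2M-high cells was 11.5, 12.8, 9.58 and 9.02%. By genotype it was 12.2% ± 0.93 against 9.30% ± 0.40 (SD, n = 2 mice each, Helios-deficient first). At this limit the difference was wider than the spread within either genotype. With the top 20% as G2M-high the shares were 26.3, 28.2, 20.3 and 22.1%. With the top 5% they were 4.86, 6.47, 4.36 and 4.84%, so Helios-deficient mouse 1 was level with wild-type mouse 2. No test was made of these shares, which rest on a sum over chosen members. The G2M-high cells held means of 25.2 ± 0.84 member UMIs in Helios-deficient and 25.5 ± 1.05 in wild-type mice. The other cells held 1.94 ± 0.05 and 1.71 ± 0.17. Both groups of cells were set by these same UMIs, so the means cannot show whether the level per cell differed.

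Depth per cell moved with genotype, with median UMIs of 8670, 8461, 7599 and 7627 and no overlap. Of the cells of each mouse, 30.04, 30.8, 20.5 and 22.4% were in the highest quartile of all cells by total UMIs. Within that quartile the share of G2M-high cells was 34.1, 34.1, 36.3 and 33.3%, so the genotypes overlapped there. In the next lower quartile it was 2.10, 6.67, 6.53 and 4.13%, again with overlap, and in the lower quartiles it was at most 2.08%. The part of depth in the difference between genotypes was not tested beyond these values.

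**Figure D4:**
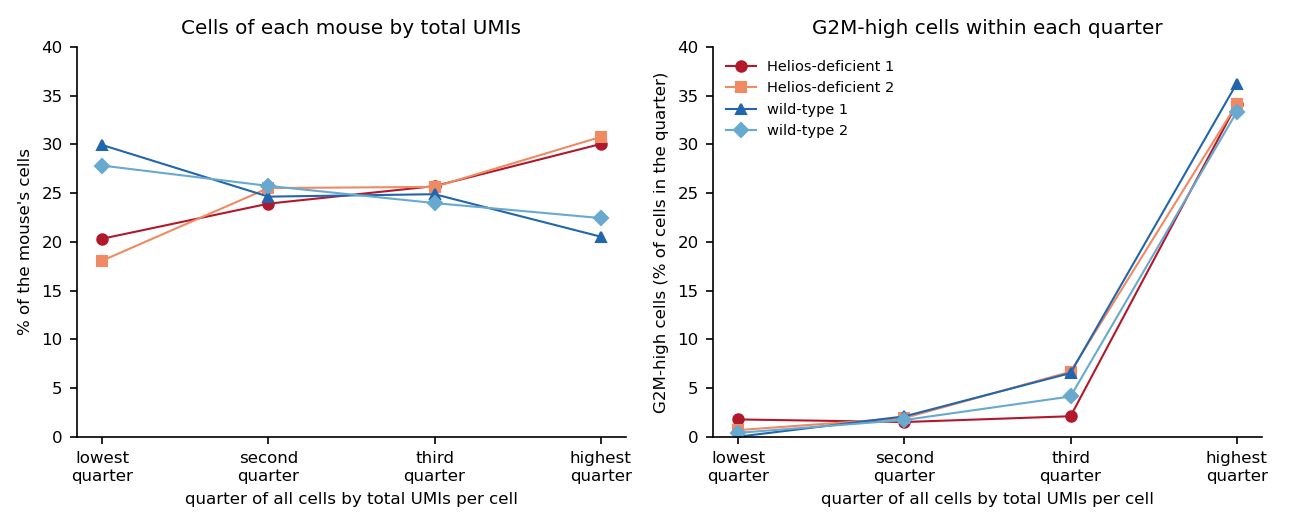
Cells of each mouse in quartiles of all thinned cells by total UMIs (left, % of the mouse's cells) and share of G2M-high cells within each quartile (right). The Helios-deficient mice have 30.04 and 30.8% of their cells in the highest quartile and the wild-type mice 20.5 and 22.4%, and within it all 4 mice lie between 33.3 and 36.3%.

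Within states, single members passed. In the platelet state 42 of 6953 genes were called (0.604%), with 2 of 34 members. Nusap1 stood at 79.9, 146, 55.5 and 50.2 CPM, with a difference of 1.20 on the log2 scale (SE 0.22; edgeR adjusted p = 0.00148), and Ccnb2, which encodes cyclin B2, at 111, 163.5, 78.8 and 93.9 CPM (0.72, 0.0373). In both genes the genotypes did not overlap and Helios-deficient mouse 2 was the highest. Without that mouse neither passed (adjusted p = 0.667 and 0.837) and the median over the members was -0.03 in place of 0.41. Ccnb2 also did not pass without wild-type mouse 1 (0.452). In cells with Dntt 1.14% of 7897 genes were called, with 1 of 36 members: Ccnb1, which encodes cyclin B1, stood at 95.3, 95.9, 42.6 and 70.8 CPM (0.76, SE 0.20, edgeR adjusted p = 0.0129). The Ccnb1 call was lost without Helios-deficient mouse 2, at a log2 fold change of 0.75 (adjusted p = 0.136), and without wild-type mouse 1, at 0.43 (0.721). In cells with Flt3 0.165% of 9065 genes were called, with 1 of 36 members, Pbk at 65.4, 81.8, 47.5 and 38.9 CPM (0.78, SE 0.17, edgeR adjusted p = 0.0311). Pbk passed without Helios-deficient mouse 1 and did not pass without any of the other 3 mice (adjusted p from 0.144 to 0.71). Its log2 fold change was then 0.58, 0.94 and 0.66, in the order of the mice.

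In cells with stem cell transcripts 0.346% of 8390 genes and 0 of 28 members tested were called. At an unadjusted p under 0.05 there were 5 members, against 6.22% of all genes. The median of 0.37 was -0.42 without Helios-deficient mouse 2. In cells that met no rule 0.279% of 10404 genes and 0 of 37 members were called, with 2 at an unadjusted p under 0.05 (6.1% of all genes) and a median of 0.05. The median genotype difference was thus 0.41, 0.28, 0.16, 0.37 and 0.05 in the platelet, Dntt, Flt3, stem and remaining cells. Whether the genotype effect differed between a state and the mean of the other 4 was tested in 1 fit over 8745 genes. It was called in 0.103, 0.126, 0.0114, 0.0114 and 0.0% of genes, in the same order, and in 0 members in every state. The smallest adjusted p of a member was 0.122, in the remaining cells, where 7 of 36 members had an unadjusted p under 0.05, against 6.01% of all genes, and 6 a positive difference.

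Within the G2M-high cells, the balance of early and late members moved with the S phase genes, in the pooled cells. UMIs of the 9 later members made up 44.4% of those of the 9 later and 9 earlier members together, and 43.9, 44.7, 42.1 and 47.2% in the 4 mice. In the 107 cells with 0 to 4 UMIs of the S phase genes this share was 57.3%. It was 45.6% in the 104 cells with 5 to 9, 29.2% in the 122 cells with 10 to 19 and 18.3% in the 30 cells with 20 or more. Total depth did not follow this order, with medians of 14321, 16651, 15390 and 14584 UMIs, but the mean of summed member UMIs did, at 32.3, 28.2, 19.4 and 14.97, so cells with the most S phase UMIs lay nearest the limit of 12. The differences between these groups of cells were not tested over mice. The share was 49.7% in CD48-low CD150-high and 40.8% in CD48-high CD150-low cells. Of the G2M-high cells 56 (15.4%) were also in the top 10% for S phase UMIs, against 9.48% of the other cells.

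**Figure D5:**
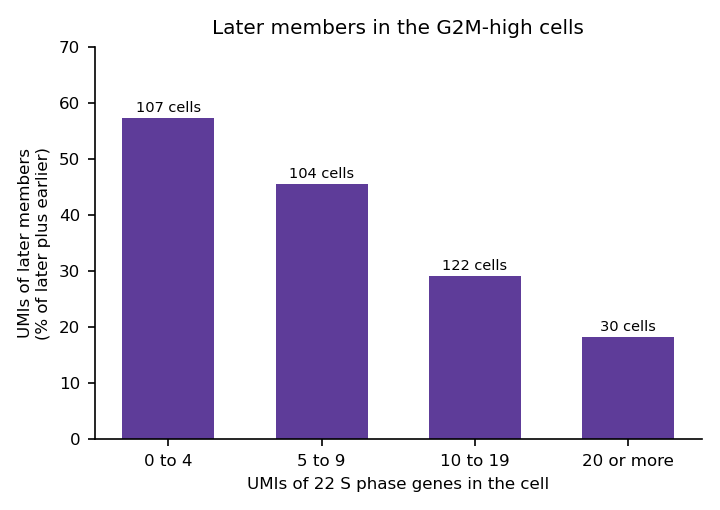
Share of UMIs from the 9 later members among those of the 9 later and 9 earlier members (bars, %), in the G2M-high cells grouped by UMIs of 22 S phase genes, all mice pooled, with the number of cells above each bar. The share falls from 57.3% in cells with 0 to 4 S phase UMIs to 18.3% in cells with 20 or more.

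Pairs of members were most alike for Ccnb2 and Cenpa (Pearson r = 0.58 across 3453 cells), and the median over 666 pairs was 0.22. Inside the G2M-high cells the median was 0.06. It was 0.13 for the 36 pairs of later members and 0.04 for the 36 pairs of earlier members. These cells were chosen by the sum of the same members, which can by itself lower the correlations between pairs. Cdc20 and Cenpa had the highest value there (0.44), followed by Ccnb2 and Cenpa (0.44) and Ube2c and Ccnb1 (0.42). Outside the list, among the 6127 genes with a UMI in at least 5% of cells (22 of them members), the 10 most like the summed members were Hmgb2 (0.68), H2afz (0.56), Tuba1b (0.52), H2afx (0.50), Stmn1 (0.50), Cks1b (0.48), Pclaf (0.48), Lockd (0.46), Tubb5 (0.45) and Tubb4b (0.44). These correlations share 1 run and the thinned depth and are given as descriptions.

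Other genes of the pathway were read in the same fits. Of 43 further G2 and mitosis genes, 0 were called between genotypes, where 0.794% of all genes were. In 42 the log2 fold change was positive, with a median of 0.23. In the CD48-high CD150-low gate 32 of 43 were higher and 1 lower (median 0.76), where 16.5% of all genes were higher and 15.2% lower. In cells with stem cell transcripts 31 of 40 tested were lower and 1 higher, where 12.3% of all genes were lower and 12.8% higher. Among 14 regulators of these genes, including Foxm1, Mybl2 and the MuvB and NF-Y subunits, 0 were called between genotypes (median 0.07), and 5 of 13 tested were higher and 1 lower in the CD48-high CD150-low gate (median 0.37). Of 22 S phase genes, 0 were called between genotypes (median 0.11, 20 positive), 21 were higher in the gate (median 0.68) and 20 were lower in cells with stem cell transcripts. Within the Dntt state 3 S phase genes were called higher in Helios-deficient mice, where 0.57% of all genes were. All 22 were positive (median 0.38), and Ccnb1 was the 1 member called there.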

How the data were processed

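Messenger RNA, antibody tags and hashtags of LSK cells from 4 mice were sequenced from 1 droplet run. The deposited matrix holds raw UMI counts. The submitters' processing notes name Cell Ranger, Seurat 3.0.0 and mm10, and the matrix header gives software version 3.0.2, per the file headers. Aligner settings and the rule for kept cells are not given in the sources used here. The authors' hashtag calls gave 3842 of 4108 barcodes to a single mouse, 231 to doublets and 35 to no hashtag, and their list of kept barcodes gave 3470 cells. No doublet caller was run, so doublets within a mouse stay in.

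Counts were summed per mouse, or per mouse and state or gate, and tested with edgeR 4.0.16 (quasi-likelihood, robust, TMM, filterByExpr; R 4.3.3) over all genes, with Benjamini-Hochberg adjustment and a threshold of 0.05. State and gate fits had mouse as a block. Only 2 of 4 planned gates had 30 cells in every mouse, so these were compared directly. Labels describe separate mice, with n = 2 per genotype, all in 1 run. Cell shares were read after thinning to 3000 UMIs. Percentages of pooled cells carry counting error only. Python 3.11.15 with numpy 2.4.6 and scipy 1.17.1 was used. The fitting step was tested on simulated data.

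All 37 members are accounted for, with full values for the most abundant, those with the 6 smallest genotype p-values and 1 per role, and the 10 most similar other genes. Other values were named for their place in a comparison. The members and lists were chosen with earlier results of these data known. Alternatives were DESeq2 1.42.0, filters, scaling, state thresholds, thinning depths, cell sets and leaving out each mouse. Fits without G2M-high cells, the state by genotype interaction, granule bins, tag terciles, depth quartiles and left-out barcodes were chosen after seeing the data.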

Additional observations from a re-analysis of the deposited data

Results flagged for a closer look

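Barcodes outside the authors' kept cells also held member transcripts. In every set below, the share of G2M-high barcodes at the same thinned depth was above the 10.5% of kept cells. The interval did not reach that share, except for barcodes with no hashtag. Of 32 single-mouse barcodes with more UMIs than any kept cell (over 32870), 20 were G2M-high, or 62.5% (95% exact binomial interval 43.7 to 78.9%). Of 50 barcodes with at least 5% mitochondrial UMIs that were deep enough to thin, 12 were G2M-high, or 24.0% (13.1 to 38.2%). Of 219 doublets between mice, 38 were G2M-high, or 17.35% (12.6 to 23.0%). Of 68 left-out single-mouse barcodes under 5% mitochondrial UMIs, 25 were G2M-high, or 36.8% (25.4 to 49.3%). This set had a median of 31209 UMIs and shared barcodes with the first set. Of 28 barcodes with no hashtag 4 were G2M-high (14.3%, 4.03 to 32.7%, which includes the share of kept cells). The intervals cover counting error only. Median depth was 37900 UMIs in the first set and 12133 in the doublets, and its part in these shares was not tested.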

How the results depend on the processing

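Of 834 values recomputed under alternatives, 671 kept their direction and side of the threshold or stayed near the first value. Genotype values of single members made up 493 of the 834 and 422 of the 671. As 0 members were called in that fit, most of these stayed uncalled, which says little on how firm a call is. Where a value changed and this was not given by construction, the cause was not tested. The design has 2 mice per genotype and 1 run, and members such as Gtse1 and Ect2 rest on few UMIs. Mice left out in turn leave an arm with 1 mouse, assumed to vary like the others.

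Between genotypes over all cells, 92 genes were called, against 35 with DESeq2, 296 without a filter on low counts, 57 without the robust option, 144 with all single-mouse barcodes and 126 to 565 without 1 mouse. Members called (0) became 12 without the filter (1.79% of all genes), 1 without TMM (0.897%) and 7 with equal cells per state (0.563%). They became 4 with all single-mouse barcodes (1.23%) and 3 without cells with B cell or macrophage markers (0.987%). The median (0.26) became 0.40 with equal cells per state, 0.16 without the 5% of cells with the most UMIs and 0.19 to 0.36 without 1 mouse. Of 37 members, 10 changed sign in at least 1 alternative. Without G2M-high cells, an alternative chosen after seeing the data, Anln was at -0.33, Cdc20 at -0.023, Ckap2l at -0.49, Dlgap5 at -0.10, Ect2 at 0.042, Kif23 at -0.24 and Ube2c at -0.085. That fit left out cells by the UMIs of these same members, so its signs are a description only. Without the 5% of cells with the most UMIs, Anln was at -0.19, Bub1 at -0.13 and Kif23 at -0.078. With equal cells per state Ect2 was at 0.14, and with all single-mouse barcodes Kif23 was at -0.033. Without 1 mouse, Anln ran from -0.12 to 0.28, Dlgap5 from -0.082 to 0.22, Gtse1 from -0.21 to 0.19, Kif23 from -0.084 to 0.10 and Ndc80 from -0.087 to 0.29.

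With states set at 1 UMI, members called were 1 in place of 25 higher in the platelet state (median 0.12) and 3 in place of 15 in the Dntt state (0.16). They were 0 in place of 2 lower in the Flt3 state (-0.086) and 10 in place of 30 lower in the stem state (-0.41). In the remaining cells 3 were higher in place of 5. All genes called in the same direction were 5.06, 9.42, 0.48, 5.73 and 4.51%, in this order. At 3 UMIs, members called higher were 28 (0.95) in the Dntt state and 18 (0.46) in the remaining cells, with a stem median of -1.43. Of all genes 11.9 and 10.7% were higher in these 2 fits, against 11.7 and 5.34% in the main fit. Platelet and Flt3 states could not be fitted at 3 UMIs. Without the replicate block, 0 members were lower in the Flt3 state and 2 higher in the remaining cells (0.858 and 2.56% of all genes). Without a filter these were 4 and 9 (0.691 and 4.74%), and without the top 5% the Flt3 count was 4 (1.29%). Without 1 mouse, the counts were 6 to 20 in the Dntt state (9.35 to 10.7% of all genes). They were 0 to 2 in the Flt3 state (0.897 to 1.12%) and 0 to 13 in the remaining cells (2.69 to 4.59%).

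Within states, the median member difference between genotypes without 1 mouse ran from -0.031 to 0.57 (platelet), 0.19 to 0.44 (Dntt) and 0.10 to 0.30 (Flt3). It ran from -0.42 to 0.74 (stem) and from -0.0054 to 0.10 (remaining). Without the filter 1 member was called in the stem state, where 0.22% of all genes were. The ratio of Helios-deficient to wild-type shares of G2M-high cells (1.31) was 1.23 with the top 5% as G2M-high. Against all cells of a mouse, the Dntt ratio (1.16) was 1.58 with the top 5%, 1.03 and 0.99 at 2000 and 5000 UMIs and 0.96 with all single-mouse barcodes, the stem ratio (0.41) was 0.60 at 5000 UMIs, and the CD48-high CD150-low ratio (1.97) was 1.61 with the top 5%.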
